A study of Mus musculus with 4 samples.

Results

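Mouse embryonic stem cells in which Tet1 and Tet2 had been knocked down were compared with scramble control cells, both without induction of PRDM14. The difference was taken for each probe set as the log2 signal on the knockdown array minus that on the scramble array. Of 45141 probe sets on the array, 28898 were annotated with 1 gene and stood for 17097 genes, and 10351 of these genes reached an expression filter of 5.4 log2 units on at least 1 of the 2 arrays. The filter is the median signal over the annotated probe sets of the 4 arrays. Each gene was read from its brightest probe set, and a gene past a 2-fold difference, 1 log2 unit, was called higher or lower.

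All cells were of the J1 line, a male mouse embryonic stem cell line, and were kept without feeder cells in serum with LIF. The labels give 4 conditions with 1 Affymetrix 3′ expression array each: scramble, Tet1/Tet2 KD, and either of these with PRDM14. Per the extraction protocol the RNA came from control cells and shTet1/Tet2 double knockdown cells of iP14, a line treated or not treated with Dox, although another label calls the scramble cells wild type. The promoter of the transgene, the hairpin sequences, the number of clones and the duration of treatment are not given. With 1 array in each condition there is no spread within a condition, so the size rule is not a test and no p-value belongs to a call. How precise each value is depends on there being so few arrays. The pair of arrays with PRDM14 shares no array with the pair compared here. Its levels or its difference between knockdown and scramble are printed beside many results but not all. Where they are left out the sign can differ, as for Sgms2, at 1.55 without and −0.96 with PRDM14.

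TET1, TET2 and TET3 are dioxygenases that oxidise 5-methylcytosine to 5-hydroxymethylcytosine and further to 5-formylcytosine and 5-carboxylcytosine. The last of these bases are cut out by thymine DNA glycosylase and replaced through base excision repair, and 5-hydroxymethylcytosine can also be diluted by replication. TET1 and TET2 are the abundant family members in embryonic stem cells, where TET1 also binds Polycomb and SIN3A complexes. Loss of TET activity in such cells has been linked to gains of methylation at enhancers and at promoters of germline genes and to altered Nodal signalling.

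The arrays carried the expression pattern of embryonic stem cells on both sides of the comparison. Pou5f1 read 11.14 log2 units in scramble and 11.11 in knockdown cells, Sox2 read 11.74 and 11.45, Zfp42 read 12.21 and 12.04, and Dppa5a read 12.79 and 12.78. Of 20 fibroblast and feeder genes, 13 stayed below the filter on each of the 4 arrays, and the summed level of the 20 ranged from 100.92 to 102.07. The array medians lay between 5.09 and 5.11. The 5′ control probe set of 18S rRNA read 11.79 in scramble and 10.95 in knockdown cells, a difference of −0.83, while the Actb and Gapdh controls differed by 0.06 to 0.32. The part of these control differences in the results was not tested.

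Tet2, the targeted gene that could be read, was lower on the knockdown array by slightly less than 2-fold. It read 8.46 in scramble and 7.5 in knockdown cells, a log2 difference of −0.96 or 1.94-fold, and 9.33 and 8.15 with PRDM14, a difference of −1.18. A further Tet2 probe set gave −0.56 and −0.58. Tet3 read 5.81 and 5.82, and Tet1 was not analysed here. The knockdown label was thus checked for Tet2 alone, and the remaining Tet2 signal on the knockdown array lay above the filter.

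In all, 64 genes were called higher on the knockdown array, 0.618% of those tested, and 46 were called lower, 0.444%, which is 1.06% either way. Of all genes tested, 51.6% were above 0 and 48.3% below it. These shares are the background for the counts in gene groups. Most genes differed little: the median difference was 0.0079, the SD over genes was 0.28, and the central 50% of genes lay between −0.11 and 0.14. A log2 difference of 0.5 was passed by 771 genes, one of 1.5 by 23 and one of 2 by 10. The median called gene differed by 1.16 among the higher genes and by −1.22 among the lower ones. Calls were somewhat rarer among dim genes, at 0.775% of 5158 genes whose brighter array read below 7, against 1.37% of 3715 genes from 7 to 9 and 1.29% of 1478 brighter genes.

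The scramble array was the highest or the lowest of the 4 arrays in 93 of the 110 called genes, or 84.5%. Over all 10351 genes tested its share was 61.0%. The knockdown array was so in 46 called genes, or 41.8%, near its share of 43.3% over all genes tested. The calls were chosen by the distance between these 2 arrays, which favours extreme values on either of them, so these counts are a description. In 49 called genes the scramble array lay at least 2-fold above or below each of the other 3 arrays, and in 7 called genes the knockdown array did so. No value of the comparison can be given without the scramble array, which makes the separate pair with PRDM14 the one reading of a knockdown difference that does not contain it. Where a gene's level is lower in a culture, fewer cells expressing it and less RNA in each cell cannot be told apart.

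Vim and Id1 had the largest higher readings in the knockdown. Vim, which encodes the intermediate filament protein vimentin, read 7.83 in scramble and 10.20 in knockdown cells, 5.15-fold higher, with 10.57 and 9.48 with PRDM14. Its other probe sets differed by 2.39 and 2.74. The inhibitor of differentiation Id1 read 6.57 in scramble and 8.85 in knockdown cells, 4.86-fold, with 10.20 and 9.79 with PRDM14. In both genes the scramble array was the low outlier, and the knockdown array lay below the scramble array with PRDM14.

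Htra1 and Tppp3 showed another arrangement, with the knockdown array as the highest of the 4. Htra1, a secreted serine protease, read 6.71, 8.88, 7.45 and 6.58 on the scramble, knockdown, scramble with PRDM14 and knockdown with PRDM14 arrays, and it differed by 2.17 without and −0.87 with PRDM14. Tppp3, a tubulin-binding protein, read 6.57, 8.10, 7.19 and 7.08 in the same order. Galnt7, an enzyme of mucin-type O-glycosylation, was high on both knockdown arrays, at 7.63, 9.12, 7.36 and 8.89.

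Several large differences among the higher genes rested on scramble readings below the filter. Colec12, a scavenger receptor of the collectin family, read 3.86 and 6.04, a difference of 2.18 that became 0.65 once values below the filter were raised to it. Vgll3, a cofactor of TEAD transcription factors, read 4.12 and 6.20, and 0.81 remained. The sphingomyelin synthase Sgms2 (4.81 and 6.36, 0.96 remaining), the myosin light chain Myl9 (4.63 and 6.03, 0.64 remaining) and angiomotin, Amot (4.63 and 5.99, 0.59 remaining), were of the same kind. In all, 14 higher genes had a scramble reading below the filter and 11 lower genes a knockdown reading below it.

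Mex3b, Rnf128, Cdh2 and Tmcc3 also read below the filter in scramble cells, at 3.65, 5.08, 4.43 and 5.17, with 0.12, 1.49, 0.73 and 1.15 remaining. Tmsb4x, Car2, Mettl9 and Anxa2 were above the filter on both arrays. Tmsb4x, an actin-binding thymosin, read 9.88 and 11.21, and the carbonic anhydrase Car2 read 7.62 and 9.0. Mettl9, a histidine methyltransferase, read 7.11 and 8.70, and the membrane-binding annexin Anxa2 read 7.18 and 8.61. On the arrays with PRDM14, Tmsb4x read 11.51 and 11.17, Car2 9.63 and 9.63, and Mettl9 8.68 and 8.95, so that each of these 3 genes was high on all arrays except scramble.

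**Figure D1:**
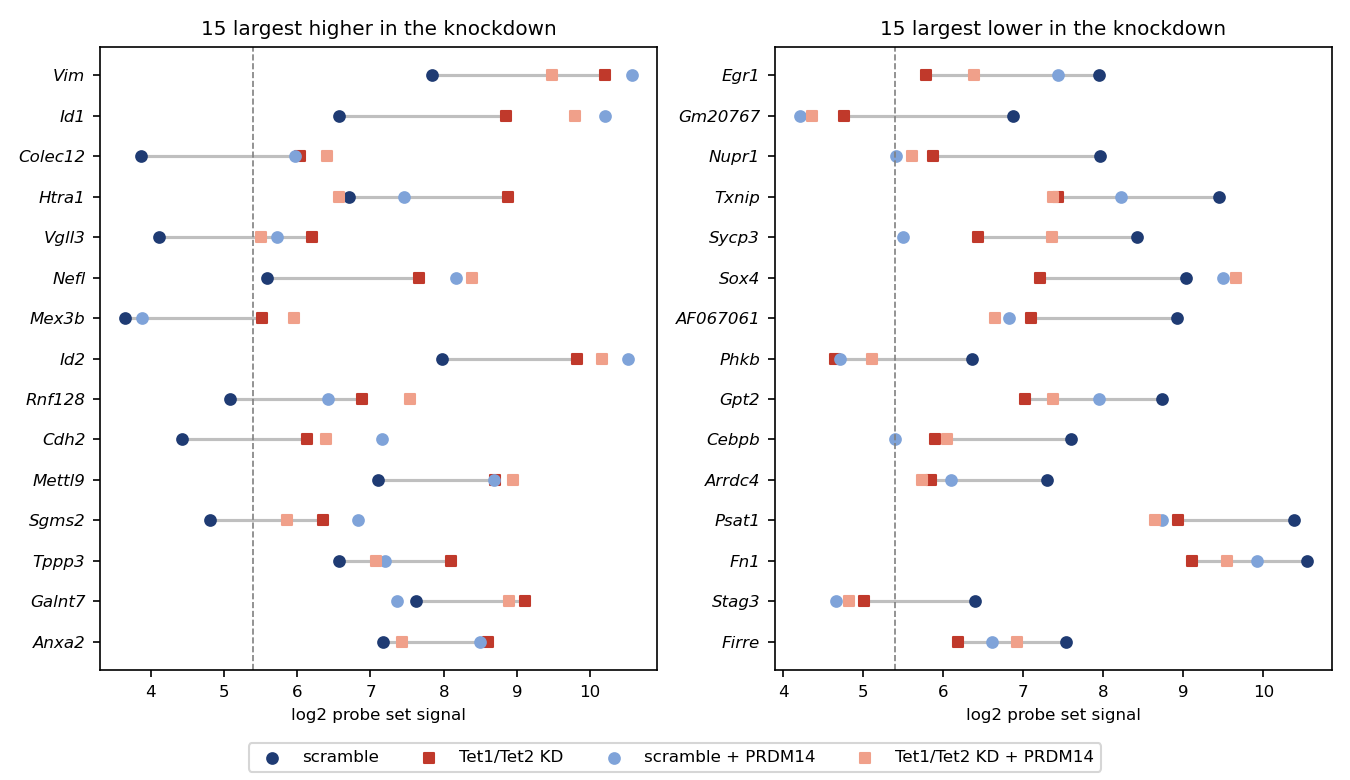
Log2 probe set signal (x axis) of the 15 genes with the largest higher (left) and the 15 with the largest lower (right) readings on the Tet1/Tet2 knockdown array, with 1 point for each of the 4 arrays and a grey line from scramble to knockdown without PRDM14. The dashed line is the filter of 5.4. In Id1, Id2, Nefl, Nupr1 and Psat1 the scramble point lies away from the other 3, whereas in Htra1 and Sox4 the knockdown point does.

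The largest lower differences were those of Egr1 (−2.16), Gm20767 (−2.11), Nupr1 (−2.09), Txnip (−2.01) and Sycp3 (−1.99). Gm20767 read below the filter in knockdown cells, and −1.48 remained once that value was raised to it. Egr1, a zinc finger transcription factor induced within minutes of ERK signalling, read 7.94 in scramble and 5.78 in knockdown cells, 4.48-fold lower, and 7.44 and 6.39 with PRDM14. Nupr1, a small stress-induced chromatin protein, read 7.96 and 5.87 and, with PRDM14, 5.41 and 5.61, and its other probe set differed by −2.66. Txnip, an arrestin that binds thioredoxin and limits glucose uptake, read 9.45 and 7.44 and, with PRDM14, 8.22 and 7.38. Egr1 and Txnip were lower in the knockdown in both pairs, while Nupr1 was high on the scramble array alone.

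Sox4 and Fn1 were called lower without PRDM14 and differed by 0.17 and −0.38 in the pair with it. Sox4, a SoxC transcription factor of progenitor cells, read 9.03, 7.21, 9.50 and 9.66 in the order scramble, knockdown, scramble with PRDM14 and knockdown with PRDM14, so that the knockdown array alone was low. That reading came from the brightest of 3 probe sets, and the others differed by −0.23 and −0.20. Fn1, the matrix protein fibronectin, read 10.54, 9.11, 9.92 and 9.54. The noncoding RNAs Firre, which is X-linked, and Snhg14 read 7.53 and 6.18, and 7.56 and 6.31, and with PRDM14 their differences were 0.31 and 0.51.

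The 7 genes in which the knockdown array lay at least 2-fold away from each of the others were Htra1, Rhox6, Rhox9 and Slit2 on the high side and Sox4, Otx2 and Trh on the low side. Their distance to the nearest other array was 1.43, 1.13, 1.16, 1.13, 1.82, 1.16 and 1.15 in that order. Slit2, a secreted guidance cue, read 6.12 on the knockdown array and 4.69 to 4.98 elsewhere, below the filter. Otx2, a homeobox factor of the formative and primed epiblast, read 6.44 on the knockdown array and 7.60 to 8.25 elsewhere. Trh, the precursor of thyrotropin-releasing hormone, read 5.78 against 6.93 to 9.21.

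Genes of DNA methylation and demethylation were not among the calls. Of 20 tested members of a list of TET enzymes, glycosylases and repair factors, 11 were above and 9 below 0, none was called, and the median difference was 0.02, against 0.0079 for all genes. The largest of them apart from Tet2 were Apex1, the endonuclease that cuts abasic sites (7.61 and 8.49), and Gadd45a, an adaptor proposed to guide repair to methylated DNA (7.09 and 7.89). With PRDM14 these differed by −0.41 and −0.38. Idh1, an enzyme that makes the 2-oxoglutarate which TET enzymes need, differed by 0.61, and thymine DNA glycosylase, Tdg, by −0.06.

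Among 13 genes of methylation and its readers, 5 were above and 8 below 0, with a median of −0.04. Dnmt3l, the cofactor of the de novo methyltransferases, read 9.76, 9.21, 10.72 and 9.93 on the 4 arrays in the order used above, a difference of −0.55 without and −0.79 with PRDM14. The de novo enzymes Dnmt3a and Dnmt3b differed by −0.29 and −0.06, and the maintenance enzyme Dnmt1 by −0.20. The methyl-CpG binder Mbd1 (−0.49) and the hemimethylation reader Uhrf2 (−0.45) were the next lowest, and the histone methyltransferase Ehmt2 (0.50) was the highest, although its other probe set gave −0.16.

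**Figure D2:**
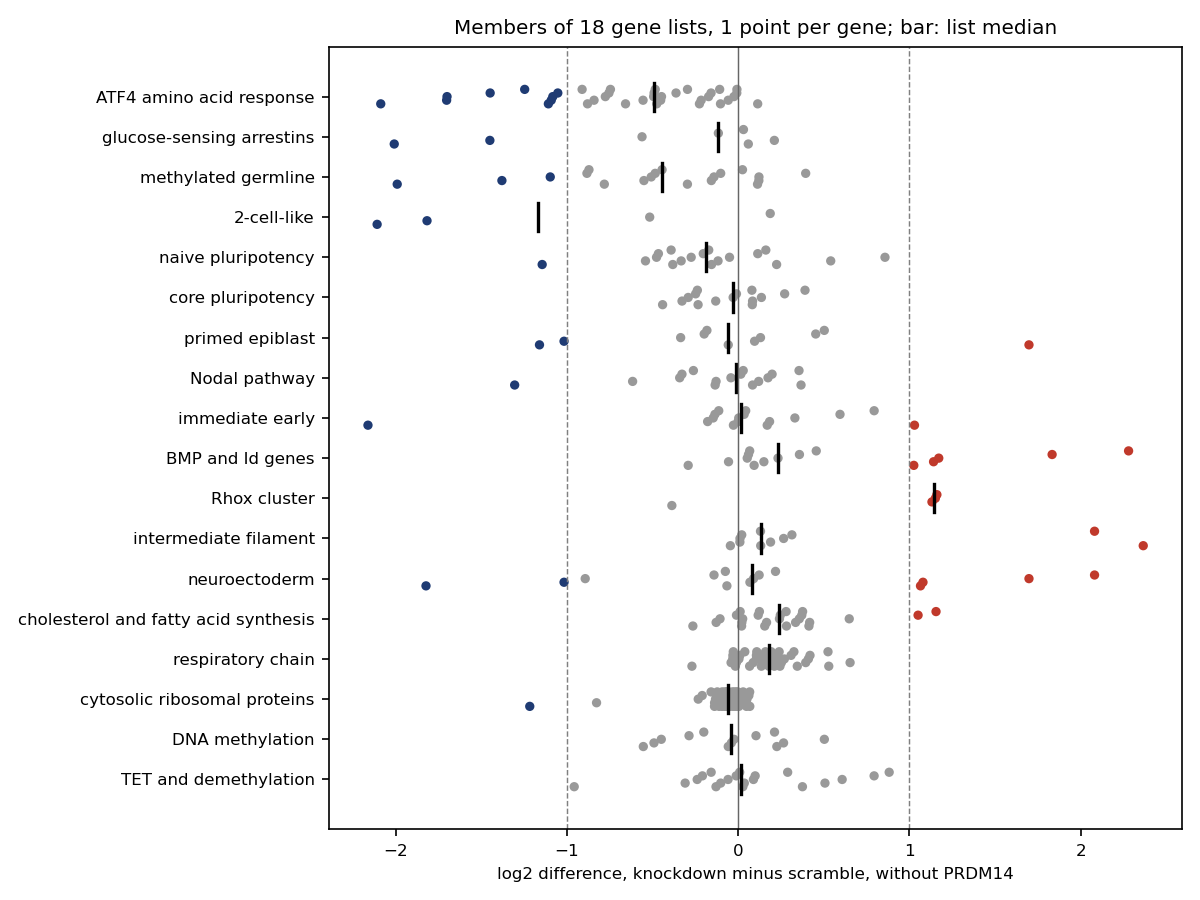
Log2 difference between the knockdown and the scramble array without PRDM14 (x axis) for the tested members of 18 gene lists, with 1 point per gene, the list median as a black bar and dashed lines at 2-fold. Blue and red points are genes at least 2-fold lower or higher. The ATF4 list lies almost wholly below 0, with 35 of 36 genes, and the respiratory chain list mostly above 0, with 35 of 42.

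ATF4 is a transcription factor whose translation increases when amino acids are scarce or when unfolded proteins accumulate, and it induces genes for amino acid synthesis, uptake and tRNA charging. Many of its targets carry a composite C/EBP-ATF element with the core TGATGNAA. Of 36 tested genes on a list of such targets, 35 were below 0 on the knockdown array, against 48.3% of all genes tested. Among the 36, 9 were called lower and none higher, against 0.444% and 0.618%, and the median was −0.49. In the pair with PRDM14 the same 36 genes had a median of 0.04, with 21 above 0, where 50.8% of all these tested genes lay above 0. The scramble array was the highest of the 4 in 32 of the 36 genes. Its share of 61.0% over all genes tested counts highest and lowest together and is no like background here. The share with scramble highest alone was not determined.

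The core was searched on both strands, in the 300 bases from 250 before to 50 after the start of each gene in the RefSeq promoter table of GRCm38.p6. It occurred in 8 of 30 list genes with a promoter there, or 26.7%, against 2.83% of the 8369 tested genes with a promoter and 3.97% of all 32841 promoters. The 8 were Asns, Chac1, Trib3, Nupr1, Vldlr, Pck2, Aars and Gars, and 3 of the 9 called genes, all of which have a promoter in the table, were among them. The 250 bases before the start of those 3 are shown because they carry the element in genes with a call, with the match in capitals at positions −193, −110 and −103 from the start. A match describes the sequence and does not show that a factor binds there. The list was made of ATF4 targets, so its larger share describes the list and not the knockdown difference.
Chac1, chr2:119350992-119351241, plus strand: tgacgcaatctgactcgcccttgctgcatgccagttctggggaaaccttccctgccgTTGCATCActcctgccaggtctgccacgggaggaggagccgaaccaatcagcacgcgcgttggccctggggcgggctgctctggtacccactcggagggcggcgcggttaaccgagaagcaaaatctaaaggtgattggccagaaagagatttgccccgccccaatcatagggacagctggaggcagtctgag
Nupr1, chr7:126625471-126625720, minus strand: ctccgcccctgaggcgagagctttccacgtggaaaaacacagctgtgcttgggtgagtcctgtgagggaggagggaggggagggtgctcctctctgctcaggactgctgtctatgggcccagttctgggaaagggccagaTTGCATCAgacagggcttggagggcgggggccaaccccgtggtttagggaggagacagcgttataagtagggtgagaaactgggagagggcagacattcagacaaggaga
Pck2, chr14:55540016-55540265, plus strand: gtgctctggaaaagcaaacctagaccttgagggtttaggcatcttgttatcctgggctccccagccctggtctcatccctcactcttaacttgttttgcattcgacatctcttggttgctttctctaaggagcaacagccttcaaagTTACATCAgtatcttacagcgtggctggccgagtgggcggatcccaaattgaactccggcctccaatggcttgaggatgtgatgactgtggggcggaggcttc

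Chac1, Nupr1 and Pck2 had the same pattern of levels. Chac1, which degrades glutathione, read 8.03 in scramble cells, 6.95 in knockdown cells, and 6.88 and 6.79 with PRDM14. Pck2, the mitochondrial phosphoenolpyruvate carboxykinase, read 6.74, 5.64, 5.22 and 5.35. In each of the 3 genes the scramble array was at least 2-fold above the others and the knockdown difference with PRDM14 was between −0.09 and 0.19. On the arrays with PRDM14 Pck2 was below the filter and Nupr1, at 5.41 and 5.61, was near it. Small differences of these genes there are limited by low signal.

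The other called members act in amino acid metabolism and in the stress response. Psat1, an aminotransferase of serine synthesis, read 10.39, 8.94, 8.73 and 8.65 on the 4 arrays, and Gpt2, the mitochondrial alanine aminotransferase, read 8.73, 7.03, 7.95 and 7.38. Other probe sets of Gpt2 differed by −1.11 and −0.27. The cationic amino acid transporter Slc7a1 read 8.91, 7.85, 8.20 and 7.82. Ddit3, the proapoptotic factor CHOP, read 6.96 and 5.85, and Ddit4, an inhibitor of mTORC1, read 8.61 and 7.36. Cebpb, a bZIP factor that pairs with ATF4, read 7.60 and 5.90, but its other probe set differed by 0.06.

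Members under 2-fold also lay below 0 for the most part. Asns, asparagine synthetase, read 10.66 and 9.78, a difference of −0.88, and the tRNA synthetases Sars, Aars and Nars differed by −0.91, −0.84 and −0.75. The amino acid transporter subunit Slc3a2 differed by −0.78 and the bZIP factor Atf5 by −0.76. Atf4 itself read 10.03 and 9.86, a difference of −0.17, and Slc7a3 (0.11) was the one tested member above 0. Over the 9 called genes the difference without PRDM14 had a median of −1.25, and in the separate pair the same genes ranged from −0.57 to 0.65 with a median of −0.08.

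**Figure D3:**
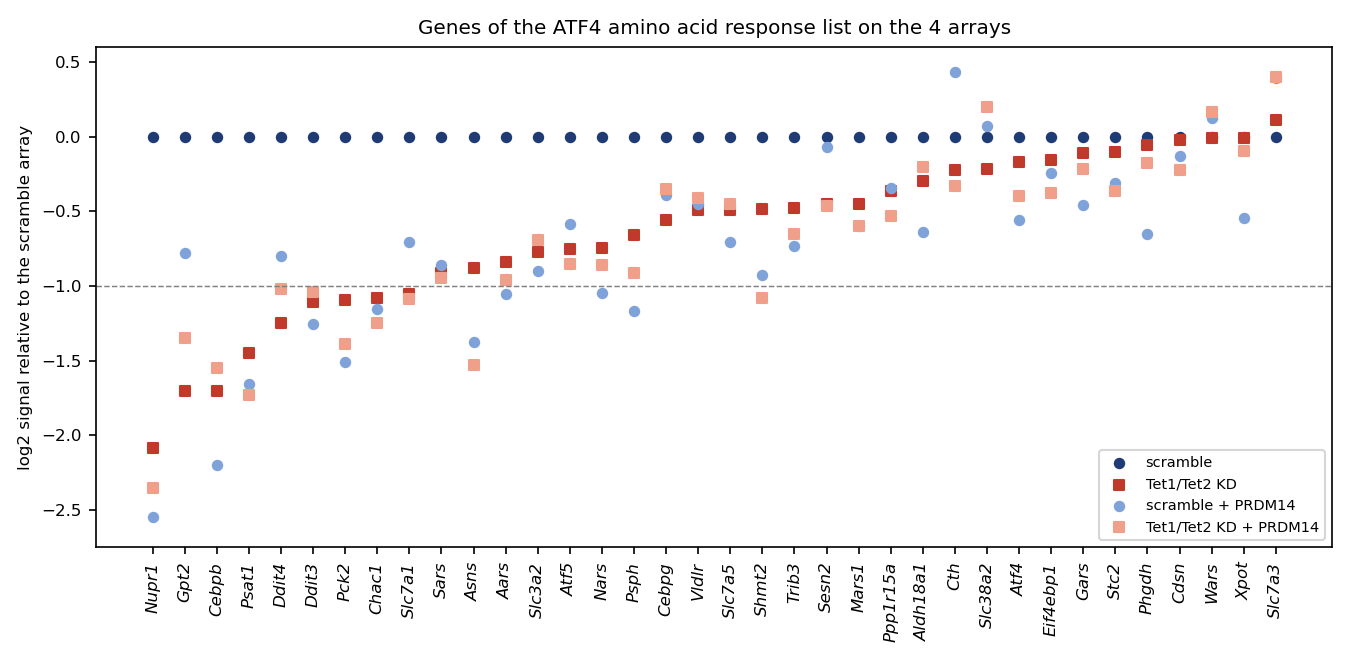
Log2 signal of 36 ATF4 list genes relative to the scramble array (y axis), ordered along the x axis by the difference between the knockdown and the scramble array, with 1 point for each array. The dashed line marks a level 2-fold below scramble. The scramble array is the highest of the 4 in 32 of the 36 genes.

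The glucose-sensing arrestins Txnip and Arrdc4 read lower in the knockdown in both pairs. These genes are induced by the MondoA and MLX factors when glucose phosphates accumulate. Arrdc4 read 7.30 in scramble and 5.85 in knockdown cells, and 6.10 and 5.74 with PRDM14, so that its difference was −1.45 without and −0.36 with PRDM14. The other probe set of Arrdc4 differed by −1.78 and that of Txnip by −0.94. Arrdc3 differed by −0.56 and −0.30, Arrdc1 by 0.030 and 0.025, and the factors Mlx (0.21), Mlxip (0.06) and Mlxipl (−0.12) differed little. In this list of 7 genes 2 were called lower and 0 higher, against 0.444% and 0.618% of all genes tested.

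Some BMP targets and Id genes read higher in the knockdown without PRDM14. BMP4 signals through SMAD1 and SMAD5 to induce Id genes, which in serum help to hold back neural differentiation of stem cells. Of 15 tested genes, 13 were above 0 and 5 were called higher, against 51.6% and 0.618% of all genes, with a median of 0.23. Besides Id1 these were Id2 (7.98 and 9.82, other probe set 1.54), Id3 (7.66 and 8.69), the phosphatase Dusp9 (5.65 and 6.83, with another probe set at 0.24) and the inhibitory SMAD Smad6 (5.02 and 6.16). Smad6 differed by 0.77 once its scramble value was raised to the filter. The ligand Bmp4 read 6.62 and 7.08. Id4, Msx1, Msx2 and Tsc22d1 differed by only 0.07, 0.06, 0.15 and 0.05, and the receptor gene Bmpr2 by −0.29.

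With PRDM14 the same BMP and Id genes had a median of −0.06, with 5 above 0, against 50.8% of all these tested genes. Id1, Id2 and Id3 differed there by −0.41, −0.35 and −0.59, while Dusp9 differed by 0.68 and kept its direction. The scramble array was the lowest of the 4 in 9 of the 15 genes. Its share of 61.0% over all genes tested counts highest and lowest together and is no like background here. The share with scramble lowest alone was not determined.

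Immediate early and ERK feedback genes did not follow Egr1. Of 16 immediate early genes, 9 were above and 7 below 0, and the calls were Egr1 on the lower side and Ccn2, a matricellular protein and target of YAP, on the higher side (8.19 and 9.22). Fos differed by −0.15, Egr3 by −0.14, Jund by 0.59 and Myc by 0.79. Of 16 FGF and ERK feedback genes, 14 were above 0 and none was called, with a median of 0.13. Spry4, a feedback inhibitor of receptor tyrosine kinases, differed by 0.84 on its brightest probe set, whereas its lowest probe set gave 0.10.

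Nodal pathway genes were evenly divided around 0, with 8 of 16 on each side. The exception in size was Lefty2, a secreted inhibitor of Nodal, which read 6.46 and 5.15 without and 6.85 and 5.67 with PRDM14. Its difference was −1.31 and −1.18, or −1.06 without PRDM14 when the knockdown value was raised to the filter. Lefty1 read 9.45 and 8.83, a difference of −0.62 without and −0.26 with PRDM14. The receptor gene Acvr2a differed by −0.34 and the signal transducer Smad3 by 0.37.

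Naive pluripotency genes read mostly lower on the knockdown array and more so with PRDM14. Of 18 genes, 13 were below 0 with a median of −0.19, and the median with PRDM14 was −0.46. The called member was Manba, a lysosomal mannosidase, at 7.61, 6.46, 8.60 and 7.05. The nuclear receptor Esrrb differed by −0.54 and −0.52, and Stat3, the transducer of LIF signalling, by −0.48 and −0.40. Dppa3, a maternal factor that protects methylated imprints, went the other way and read 9.68 and 10.53 without and 7.17 and 9.12 with PRDM14. In each of these genes the direction was the same in both pairs.

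Core pluripotency genes had no call among 15, with a median of −0.03. Nanog read 9.68 and 9.95 and Utf1 read 9.19 and 9.58, and with PRDM14 Nanog differed by −0.64. Primed epiblast genes gave calls on both sides among 11: Otx2 and the zinc finger factor Zic2 (7.38 and 6.36) were lower and Cdh2, N-cadherin, was higher. With PRDM14 Otx2 differed by −0.49, Zic2 by −0.24 and Cdh2 by −0.77.

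Neuroectoderm genes gave calls on both sides. Of 14 neuroectoderm genes, 4 were called higher and 2 lower, against 0.618% and 0.444% of all genes, with a median of 0.08. The higher genes were Nefl, the light neurofilament chain (5.58 and 7.66), Cdh2 (4.43 and 6.13), Stmn3, a microtubule-destabilising stathmin (6.74 and 7.82), and Tubb3, neuronal beta tubulin (5.94 and 7.0). Other probe sets differed by 0.68 for Nefl and 0.47 for Cdh2, and Cdh2 differed by 0.73 with its scramble value raised. With PRDM14 Nefl, Cdh2, Stmn3 and Tubb3 differed by 0.22, −0.77, −0.86 and −0.17. The lower genes were Sox4 and Zic2. Genes without a call lay on both sides, among them the transcription factors Pax6 (−0.89) and Neurod1 (0.22) and the stathmin Stmn2 (0.12).

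The summed level of the 24 neuroectoderm genes with a probe set was 135.2 in scramble, 137.1 in knockdown, 146.3 in scramble with PRDM14 and 141.8 in knockdown with PRDM14 cells, and 11 of the 24 were below the filter in scramble and 11 in knockdown cells. The knockdown pair with PRDM14 gave a median of −0.18 for the 14 tested genes. The part of such cells in the readings of Nefl or Tubb3 was not tested. Of 18 trophectoderm, 13 primitive endoderm and 7 mesoderm and definitive endoderm genes, none was called in either direction.

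Among 11 intermediate filament genes 10 were above 0, and Vim and Nefl were the calls. Ina, alpha-internexin, differed by 0.31, the lamin gene Lmna by 0.27 and Nefh by 0.19. Of 15 basement membrane and matrix genes, Htra1 was called higher and Fn1 lower. The collagen-binding Sparc read 8.42 and 9.35, and the integrin subunit Itgb1 read 7.63 and 8.58, although its lowest probe set gave 0.23. Of 20 tight junction and adhesion genes 14 were below 0 with a median of −0.09, Cdh1, E-cadherin, read 10.90 and 10.43, and in the pair with PRDM14 the median was 0.35.

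Some germline genes that DNA methylation silences in somatic cells read lower in the knockdown. Of 19 tested genes, 14 were below 0 and 3 were called lower, against 48.3% and 0.444% of all genes tested. Their median was −0.45 against 0.0079 for all genes, but the filter favoured lower readings, as given below. Sycp3, a component of the lateral element of the synaptonemal complex, read 8.42 in scramble and 6.43 in knockdown cells, 3.98-fold lower, but 5.50 and 7.36 with PRDM14. Stag3, the meiotic cohesin subunit, read 6.39 and 5.01, and Syce1, of the central element, read 6.32 and 5.22. With low values raised to the filter, Syce1 differed by −0.92 and Stag3 was just under 2-fold. Mael, Meioc, Hormad1, Majin and Smc1b also read below the filter in knockdown cells. Like Syce1 and Stag3, they passed it through the scramble array alone, so a reading below 0 was fixed for them in advance. The count below 0, the list median and the calls of Syce1 and Stag3 rest partly on this. Tested members above the filter on both arrays lay on both sides of 0, from −1.99 for Sycp3 to 0.39 for Mei4. With raised values Mael, Meioc, Hormad1, Majin and Smc1b differed by −0.68, −0.56, −0.14, −0.28 and −0.07.

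Promoters of this class can hold the E2F6 site TTCCCGC and the E-box CACGTG, through which a variant Polycomb complex represses germline genes. TTCCCGC, searched on both strands, occurred in 8 of 16 list genes with a RefSeq promoter, or 50%, against 9.44% of tested genes. CACGTG, which reads the same on both strands, occurred in 7 of the 16, or 43.8%, against 12.1%. Both shares describe the list and not the knockdown difference. The upstream sequence of Sycp3 is shown because it had the largest difference of the list and holds both motifs. The capitals mark the reverse complement of TTCCCGC at position −147.
Sycp3, chr10:88459337-88459586, plus strand: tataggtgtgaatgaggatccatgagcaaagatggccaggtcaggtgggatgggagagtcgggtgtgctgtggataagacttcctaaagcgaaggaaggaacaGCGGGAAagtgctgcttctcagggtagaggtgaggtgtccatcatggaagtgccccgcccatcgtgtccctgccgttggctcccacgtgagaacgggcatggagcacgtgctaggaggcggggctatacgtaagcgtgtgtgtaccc

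In the pair with PRDM14 the germline list had a median of 0.11, with 12 of 19 above 0 and 5 at least 2-fold higher. The shares over all genes tested without PRDM14 were 50.8% and 0.57% there. Meioc, a meiotic RNA regulator, read 5.95 and 5.08 without and 4.97 and 6.29 with PRDM14. The piRNA factor Mael and the axis protein Hormad1 differed by −0.88 and −0.78 without PRDM14 and by −0.06 and −0.15 with it. Both genes were below the filter on the arrays with PRDM14. The scramble array was the highest of the 4 in 13 of the 19 genes. The share of 61.0% over all genes tested counts highest and lowest together, so it is no like background for this count.

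The 2-cell-like genes mark a rare state of stem cells resembling the early embryo. Of 4 tested, 2 were called lower and 3 were below 0, against 0.444% and 48.3% of all genes tested. Gm20767 read 6.87, 4.76, 4.21 and 4.36 on the 4 arrays, and AF067061 read 8.92, 7.10, 6.82 and 6.64. These genes lie near each other, with 2 genes between them in the RefSeq order, and the AF067061 probe set is of a kind that can match several transcripts. Usp17la differed by −0.52 and Eif1ad by 0.19. Zscan4a, a telomere-associated factor of the 2-cell-like state that was named after its value was seen, read 6.92, 5.70, 5.53 and 5.61. With PRDM14 the differences of Gm20767, AF067061 and Zscan4a were 0.14, −0.18 and 0.09, where Gm20767 was below the filter on both arrays.

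In the X-linked Rhox cluster of reproductive homeobox genes, 3 of 4 tested genes were called higher, against 0.618% of all genes. Rhox5 read 9.56 and 10.71, Rhox6 read 5.59 and 6.72, and Rhox9 read 5.75 and 6.91. Rhox13 differed by −0.39. With PRDM14 Rhox6 and Rhox9 were below the filter on both arrays, and Rhox5 read 9.88 and 8.52, a difference of −1.36. Rhox6 and Rhox9 are closely related copies with 2 genes between them in the RefSeq order, so their signals may not be fully separable.

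Germ cell specification genes gave 1 call among 13, with a median of 0.02. Ifitm3, a transmembrane protein of early germ cells, read 7.81 and 8.95 without PRDM14 and 10.26 and 8.27 with it. Ifitm1 differed by −0.83 and −0.27. Prdm1, the germ cell repressor BLIMP1, read 6.73 and 5.86, and Kitl, the ligand of KIT, read 7.34 and 8.32, although a further probe set of Kitl gave 0.13. Of 27 imprinted genes 12 were above and 15 below 0 with no call. The largest differences without PRDM14 were those of Sfmbt2 (0.93, and 0.85 with PRDM14), the noncoding RNA Rian (−0.83 and −0.73), Phlda2 (0.74 and 1.09), Copg2 (−0.57 and 0.40), Gab1 (−0.56 and −0.51) and the noncoding RNA Meg3 (−0.49 and −0.37). Without PRDM14 other probe sets above the filter gave −0.65 and 0.09 for Rian and from −1.08 to 0.04 for Meg3.

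Sterol genes were the metabolic group with calls above 0. Of 25 cholesterol and fatty acid synthesis genes 21 were above 0 and 2 were called higher, against 51.6% and 0.618% of all genes. The list median was 0.24. Insig1, which retains the SREBP escort protein in the endoplasmic reticulum, read 6.07 and 7.23, and Idi1, isopentenyl diphosphate isomerase, read 7.71 and 8.76 with another probe set at 1.13. With PRDM14 they differed by 0.34 and −0.05, and the list median was −0.05. The sterol carrier Stard4 differed by 0.65 on its brightest probe set and by 0.09 on its lowest.

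Other metabolic and housekeeping lists moved by small amounts. Of 42 respiratory chain genes 35 were above 0 with a median of 0.18 and no call, and Sdhd, a subunit of succinate dehydrogenase, differed by 0.65. Of 66 cytosolic ribosomal protein genes 55 were below 0 with a median of −0.06. Rpl39l, the germ cell paralogue of Rpl39, was the called member, at 9.33, 8.11, 8.60 and 7.42, and its difference was −1.22 without and −1.18 with PRDM14. Of 31 glycolysis and hypoxia genes Pfkp, a phosphofructokinase, was called lower (9.19 and 8.17 without, 8.76 and 7.43 with PRDM14).

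Stress lists other than that of ATF4 held few calls. Of 31 heat shock and chaperone genes 23 were above 0 and none was called, and the endoplasmic reticulum chaperone Hspa5 read 9.48 and 10.45. Of 25 NRF2 antioxidant genes 18 were above 0 with a median of 0.17. Of 29 p53 target genes 20 were below 0 with a median of −0.22, and the called member, the membrane protein Perp, was higher (6.26 and 7.53). Ccng1 differed by −0.86, but by 0.03 on another probe set, and Sesn1 by 0.91, with its other probe sets at 1.44 and 1.27.

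Cell cycle, chromatin and drug efflux lists held few calls. Of 29 G1/S genes Cdkn2a was called lower, at 5.63 and 4.50, and differed by −0.24 with raised values. Cyclin D2, Ccnd2, read 6.24 and 7.13, a difference of 0.89, and its other probe sets above the filter gave 1.84, 1.16 and 0.76. With PRDM14 Ccnd2 read 7.55 and 6.55. Of 25 G2/M genes 18 were below 0 with a median of −0.13 and none was called, Cenpf and Mki67 differing by −0.59 and −0.53. Of 25 Polycomb genes Yaf2, a partner of RING1 proteins, was called higher (5.31 and 6.32), and differed by 0.93 with raised values, while the BCL6 corepressor Bcor differed by −0.90. Of 14 interferon genes Ifitm3 was the call, and of 8 ABC transporters none was called. Of 15 housekeeping genes 11 were above 0, with a median of 0.09.

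Some further called genes were on no list and were named after their values were seen. Secreted and membrane signalling genes among the higher calls were Sema3e (5.52 and 6.72), Fgfbp1 (5.69 and 6.87), Igfbp3 (5.59 and 6.60) and the gap junction gene Gja1 (7.86 and 8.98). Other probe sets gave 0.36 for Sema3e and as little as 0.34 for Gja1. The nucleoside phosphorylases Upp1 (8.13 and 9.42) and Pnp2 (7.18 and 8.23) were higher as well. The chromatin protein Hmga2 read 7.40 and 8.43 without and 7.35 and 8.23 with PRDM14. Among the lower calls Klf10, a TGF-beta-induced zinc finger factor, read 8.47 and 7.36, and the epoxide hydrolase Ephx2 read 8.08 and 7.02. Dicer1, the microRNA-processing enzyme, read 8.11 and 7.11, but its other probe set differed by −0.05.

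The same genes were then read in the separate pair of arrays, knockdown with PRDM14 against scramble with PRDM14. Of the 110 called genes 60 had the same sign there, or 54.5%, against 53.2% of all 10351 genes. Of the 64 higher genes 31 were above 0 there and 4 were at least 2-fold higher, against 0.57% of all genes tested, while 8 were at least 2-fold lower, against 0.435%, and their median was −0.0096. Of the 46 lower genes 29 were below 0, 8 were at least 2-fold lower and 1 was at least 2-fold higher, with a median of −0.21. Across all 10351 genes the 2 differences had a Pearson r of 0.096 and a Spearman rho of 0.095, as a description in which genes are not independent replicates. The pairs share no array, but per the labels both use the same control and knockdown cells.

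The 4 genes at least 2-fold higher in both pairs were Galnt7, Klhl13, Mex3b and Rnf128. Klhl13, an adaptor of cullin ubiquitin ligases, read 9.69, 10.89, 10.02 and 11.10 on the 4 arrays, and Rnf128, a transmembrane ubiquitin ligase, read 5.08, 6.89, 6.41 and 7.54. Mex3b, an RNA-binding protein, read 3.65, 5.52, 3.89 and 5.95, and its difference without PRDM14 was 0.12 with raised values. In each of the 4 genes both knockdown arrays lay above both scramble arrays.

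The 8 genes at least 2-fold lower in both pairs were Egr1, Lefty2, Rpl39l, Cpeb4, Slc25a16, Trh, Manba and Pfkp. Cpeb4, a regulator of mRNA translation, read 6.45, 5.25, 6.87 and 5.83, and the mitochondrial carrier Slc25a16 read 6.66, 5.43, 6.45 and 5.30. Egr1, Lefty2, Rpl39l, Cpeb4, Slc25a16, Manba and Pfkp were lower on both knockdown arrays than on either scramble array. Trh was the exception, because its knockdown array with PRDM14, at 7.26, read above the scramble array, at 6.93. These 12 genes were 10.9% of the 110 called without PRDM14 and 10.5% of the 114 called with PRDM14. Those 114 comprised 65 higher and 49 lower genes, 0.63% and 0.475% of the 10322 tested there, or 1.1% either way.

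**Figure D4:**
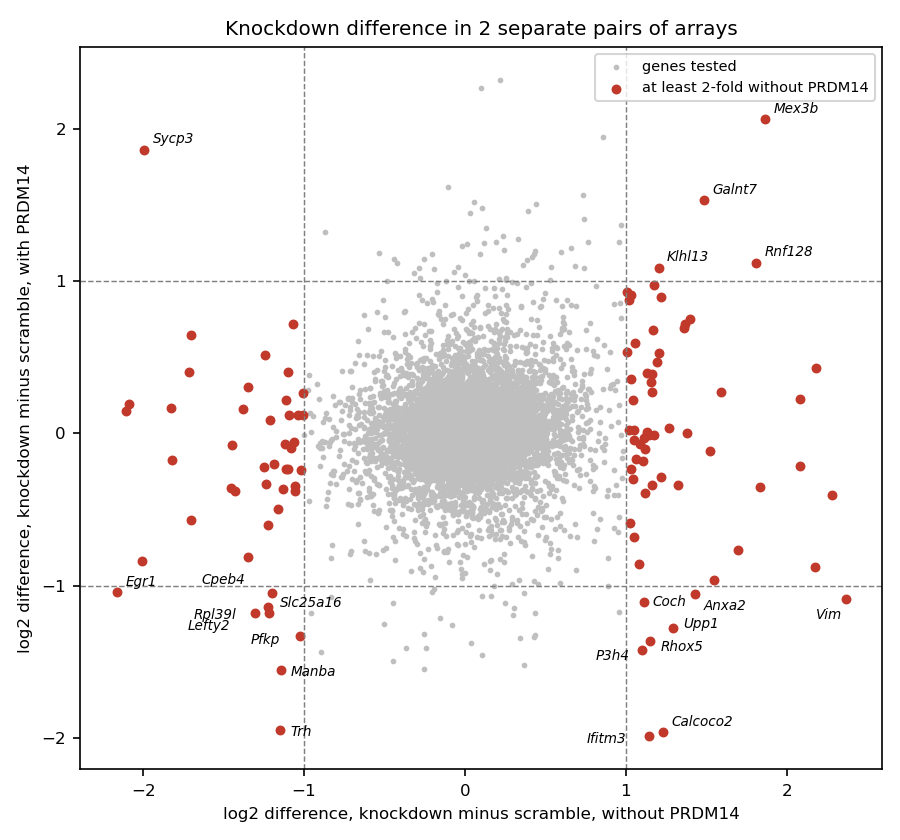
Log2 difference between knockdown and scramble without PRDM14 (x axis) and with PRDM14 (y axis) for the 10351 genes tested, with the 110 called genes in red, dashed lines at 2-fold and names for genes past 2-fold in both pairs. Of the named genes 12 lie in the corners of like direction and 9 in those of opposite direction.

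The average knockdown effect over both backgrounds could be fitted, with 1 residual degree of freedom per gene. Limma called 0 of 10519 genes higher and 0 lower after Benjamini-Hochberg adjustment at 5%. At an unadjusted limma p under 0.05 it gave 378 higher and 226 lower of the same 10519 genes. A threshold of 0.05 passes about 5% of genes with no effect, so these counts name no gene as changed. The smallest adjusted p in limma was 0.802. Tet2 had an average log2 difference of −1.07 with an SE of 0.13, an unadjusted limma p of 0.0027 and an adjusted p of 0.802, and it was lower in both pairs. The fit speaks of the average over both backgrounds and not of the comparison without PRDM14.

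Probe sets of the same gene give a technical yardstick that covers neither cultures nor arrays. Over 3216 genes read by more than 1 probe set past the filter, the difference had a pooled SD of 0.21 between probe sets of a gene. Of 35 called genes with several such probe sets, all probe sets pointed the same way in 32 and all were past 2-fold in 12. The exceptions in direction were Cebpb, Erbb3, a receptor tyrosine kinase (7.81 and 9.03, other probe set −0.10), and Prune2 (7.60 and 6.37, other probe set 0.07). Vim, Nupr1, Galnt7, Id2, Idi1 and Arrdc4 were among those with each probe set past 2-fold.

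**Figure D5:**
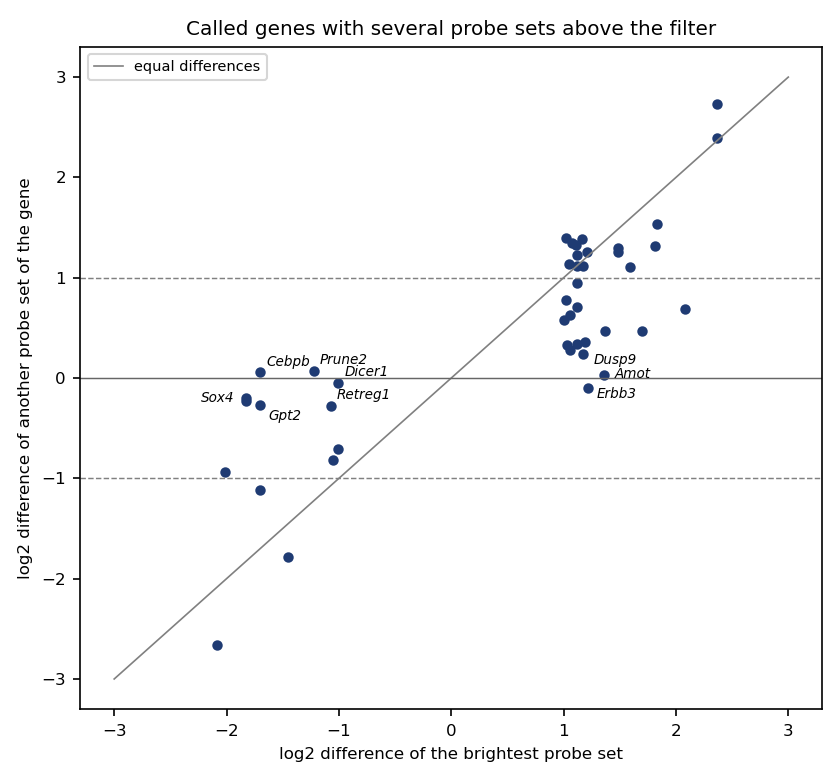
Log2 difference of a called gene's brightest probe set (x axis) against that of each of its other probe sets above the filter (y axis), for 35 genes called without PRDM14. The diagonal marks equal differences, dashed lines mark 2-fold, and named genes lie near or across 0 on the other probe set.

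Promoters of called genes were described by their CpG content. A promoter was taken as CpG-rich at an observed over expected CpG ratio of at least 0.6 and a GC content of at least 55%. Of the tested genes with a RefSeq promoter 59.7% were CpG-rich, against 22 of 45 higher genes, or 48.9%, and 21 of 36 lower genes, or 58.3%. The median CpG ratio was 0.746 over all these genes, 0.628 for the higher and 0.701 for the lower genes. At a 1.5-fold threshold the share among higher genes was 63.75%, on the other side of that of all genes. These shares are descriptions, and methylation was not measured on these arrays.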

How the data were processed

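RNA of 4 cultures was measured on 4 arrays, 1 per condition, and the titles gave the groups. A GeneChip IVT Express kit was used for labelling, per the labels' protocols, and the submitters' processing notes name Affymetrix Expression Console. Its version, background correction and summary method are not given, and how they act on dim signals could not be assessed. The deposited table holds log2 signals per probe set, brought to a common distribution by the authors, as the array quartiles show. Base 2 was inferred from their range of 2.78 to 13.2.

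Of 45141 probe sets 104 were controls, 551 named several genes and 15588 none. RefSeq's gene table held the Entrez identifiers of 28689 annotated probe sets, and 0 symbols changed. Of 954 genes on 37 lists 830 had a probe set, 3 of them matched through a synonym. The brightest probe set of a gene, a filter of 5.4 on the brighter array and 2-fold as a size rule gave the calls. Because each condition has 1 array, no test was made of the comparison itself. The average over both backgrounds was fitted with limma 3.58.1 (lmFit, eBayes with trend) in R 4.3.3 and adjusted by Benjamini-Hochberg at 5%. The scripts were tested on simulated data. Alternatives were other fold thresholds and filters, values raised to the filter, averaged probe sets, centring and a further quantile normalization.

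The members and gene lists were chosen with earlier results of these data known. The rule named the TET and DNA methylation genes, the 20 largest calls in each direction, and, per list, the members (at most 6) of largest absolute difference. Genes called in both pairs, further called members of the ATF4 list and those said so in the text were named after their values were seen. Promoters are 300-base windows from the RefSeq promoter table of GRCm38.p6, available for 8369 of 10351 tested genes.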

Additional observations from a re-analysis of the deposited data

Results flagged for a closer look

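In 9 genes the knockdown difference was at least 2-fold without PRDM14 and at least 2-fold in the opposite direction with PRDM14. With 1 array per condition this difference between the pairs was not tested. The values without and with PRDM14 were 2.37 and −1.09 for Vim, 1.43 and −1.05 for Anxa2, 1.29 and −1.28 for the uridine phosphorylase Upp1, 1.23 and −1.96 for the autophagy receptor Calcoco2, and 1.15 and −1.36 for Rhox5. They were 1.14 and −1.99 for Ifitm3, 1.11 and −1.11 for Coch, 1.10 and −1.42 for P3h4, a member of the prolyl 3-hydroxylase family, and −1.99 and 1.86 for Sycp3. The scramble array with PRDM14 was the highest of the 4 in Vim, Upp1, Calcoco2, Ifitm3, Coch and P3h4 and the lowest in Sycp3. The scramble value of Coch, 4.74, was below the filter, and 0.45 of its difference without PRDM14 remained once it was raised.

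Among 5388 probe sets above the filter that name no gene or several, which the gene results leave out, 54 were at least 2-fold apart between the knockdown and the scramble array, 22 higher and 32 lower. Among 14869 probe sets with 1 gene the counts were 99 higher and 63 lower.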

How the results depend on the processing

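No leave-one-out fit exists with 1 array per condition. The labels give no replicate numbers that could serve as a block. The counts of 64 higher and 46 lower genes became 303 and 224 at 1.5-fold and 11 and 10 at 3-fold, and the 65 and 49 with PRDM14 became 247 and 201, and 8 and 4. They were 52 and 39 with a stricter filter or with raised values, 47 and 33 with averaged probe sets (45 and 32 of the original calls kept), 63 and 47 after centring, and 60 and 49 after quantile normalization. The mean of probe sets also gave 39 higher genes with PRDM14, and 6 called ATF4 genes in place of 9. Raised values left 1 called germline gene of 3. The CpG-rich share of higher genes was 63.75% at 1.5-fold. Of the named genes, 14 fell below the rule with raised values, 8 with the mean of probe sets, 2 after quantile normalization and 1 after centring, and under these alternatives no called gene among them changed sign. Limma gave 0 genes in each alternative. Signal over background was not determined per probe set, so differences of genes near the filter are limited.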
